A study of Mus musculus with 6 samples.

Results

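The anchoring complex of perivascular astrocyte endfeet was followed through 8 genes, Dag1, Agrn, Dmd, Utrn, Dtna, Sntb1, Mlc1 and Hepacam, out of 22086 genes with counts. They were listed by name as genes of the dystrophin complex and of the MLC1 complex, with earlier results of these data known, and the rule itself uses no measured value. Polysomal mRNAs were recovered by translating ribosome affinity purification (TRAP), in which eGFP-tagged ribosomes are immunoprecipitated from a single cell type, and were sequenced in 3 Cx43KO and 3 Cx43FL libraries. Cx43KO mice carried floxed Cx43 alleles on both chromosomes (Cx43 fl/fl) together with hGFAP-Cre, which excises the floxed connexin 43 gene in cells where the human GFAP promoter has been active. Cx43FL mice were littermates with the same floxed alleles and no Cre. Mice of both genotypes were 6 weeks old and were heterozygous for the Aldh1l1:L10a-eGFP transgene, a bacterial artificial chromosome that tags the ribosomes of astrocytes. Each library came from whole hippocampi, and the number of mice behind a library is not given in the sources used here, so that the p-values below measure the spread between libraries.

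Astrocytes wrap brain vessels with endfeet, which face a basal lamina rich in laminin and agrin. Dystroglycan spans the endfoot membrane, binding laminin and agrin on the outside and dystrophin or utrophin on the inside. Dystrobrevins and syntrophins join dystrophin in the cytoplasm, and the complex holds the water channel Aqp4 and the potassium channel Kcnj10 at the vessel. MLC1 and its partner GlialCAM, encoded by Hepacam, form a second membrane complex at endfoot junctions, and mutations of either gene cause a leukodystrophy with water-filled white matter. In the brain, dystrophin exists mainly as short forms made from starts inside the gene, of which Dp71 is the form known from glial endfeet.

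The start regions of a full-length and a short transcript of Dmd are shown first, since results below set these transcripts against each other. Starts of other Dmd transcripts, some with a first exon of their own, are not shown. Dmd covers 2257 kb of the X chromosome of GRCm38, from 82948870 to 85206141 on the forward strand. Its full-length transcript (Dmd-203) has 79 exons and 14910 bases. A short transcript of the Dp71 type (Dmd-201) begins 2100 kb downstream with a first exon of its own, continues with exons 63 to 79 of the full-length form and has 4438 bases. The coding part of the first exon, with its start codon in capitals, read as follows in the GENCODE transcripts, at chrX:82949117-82949147 for Dmd-203 and chrX:85048440-85048459 for Dmd-201:
Dmd-203: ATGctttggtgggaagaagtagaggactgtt
Dmd-201: ATGagggaacacctcaaagg

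Next come 250 bases before the RefSeq start in either region, from the table of promoter windows on GRCm38.p6, at chrX:82948620-82948869 for the full-length form and chrX:85048045-85048294 for the Dp71 type, both on the forward strand. These stretches end before the first bases of Dmd-205 (82948870) and Dmd-206 (85048295), while Dmd-203 begins farther downstream at 82948903 and Dmd-201 at 85048413. Capitals mark matches to a TATA box (TATAAA), a GC box (GGGCGG) or a CCAAT box (CCAAT) on either strand:
full-length region: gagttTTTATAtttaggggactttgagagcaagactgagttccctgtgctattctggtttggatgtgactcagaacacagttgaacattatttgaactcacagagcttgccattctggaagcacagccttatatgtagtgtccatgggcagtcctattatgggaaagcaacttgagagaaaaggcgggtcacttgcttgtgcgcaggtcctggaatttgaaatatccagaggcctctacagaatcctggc
Dp71 region: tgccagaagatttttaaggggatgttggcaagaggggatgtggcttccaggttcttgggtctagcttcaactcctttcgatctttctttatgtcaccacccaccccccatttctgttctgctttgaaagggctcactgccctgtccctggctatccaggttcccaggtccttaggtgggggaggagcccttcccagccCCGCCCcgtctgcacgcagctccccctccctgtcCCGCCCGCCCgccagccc

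Over the whole window of 300 bases, the full-length region had a GC content of 45.7%, 2 CpG dinucleotides, a TATAAA match and no GGGCGG match. The window of the Dp71 region had a GC content of 62.7%, 14 CpG dinucleotides, GGGCGG matches and no TATAAA match. Of 32851 windows of this length in the table, 13.6% held TATAAA, 35.7% held GGGCGG and 37.4% held CCAAT, and the median number of CpG dinucleotides was 7. The table held windows for 6 of the 8 genes. The windows of Dag1 held 30 and 47 CpG dinucleotides at its pair of starts and those of Agrn 42 and 11, against 2 for Utrn, 3 for Mlc1 and 6 for Hepacam.

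The libraries held 33423491 to 34921942 counts on transcripts in Cx43FL and 36869534 to 77030398 in Cx43KO. Gja1, the targeted gene that encodes Cx43, was counted 1396, 1382 and 1264 times in the Cx43FL libraries and 1405, 2449 and 3079 times in the Cx43KO libraries, replicates 1 to 3 in this order here and below. The fitted change of Gja1 was 0.078 ± 0.28 on the log2 scale (SE; edgeR, adjusted p = 0.949). The counts cover the whole transcript and do not separate the excised part, so that they check the deletion neither way. Cx43KO replicate 1 stood apart from the other 5 libraries on the first principal component, at 123.4 against -50.7 to -0.41. It also had the lowest summed level of 10 astrocyte markers, 13520 CPM against 26280 to 37710 in the other libraries, and the highest summed level of 11 neuron markers, 6944 CPM against 1988 to 4075. CPM are counts per 1000000 counts on the tested genes, after TMM scaling. The sample numbers of the libraries are consecutive within each genotype, which does not show how the libraries were prepared. A difference between preparations that followed genotype could not be told apart from genotype.

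None of the 8 genes passed the test between genotypes. To be called, a gene needed an adjusted p under 0.05 (edgeR, quasi-likelihood) and more than 50 normalized counts on average in the higher genotype, which 0.00738% of the 13545 genes tested reached. All 8 genes passed the filter on low counts, and their lowest adjusted p was 0.559, for Dag1. DESeq2 called 0 of them as well, with or without its prior on fold changes, against 0.948% and 1.2% of all genes it tested. At an unadjusted p below 0.05 there was 1 of the 8, Dag1, in the direction of a higher level, against 5.66% of all genes in that direction and 8.34% in either. All 3 Cx43KO values of Sntb1 exceeded all 3 Cx43FL values, as for 8.08% of all genes, and all 3 of Dmd were lower, as for 7.45%. The median log2 fold change of the 8 genes was -0.035, against 0.071 over all genes tested.

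**Figure D1:**
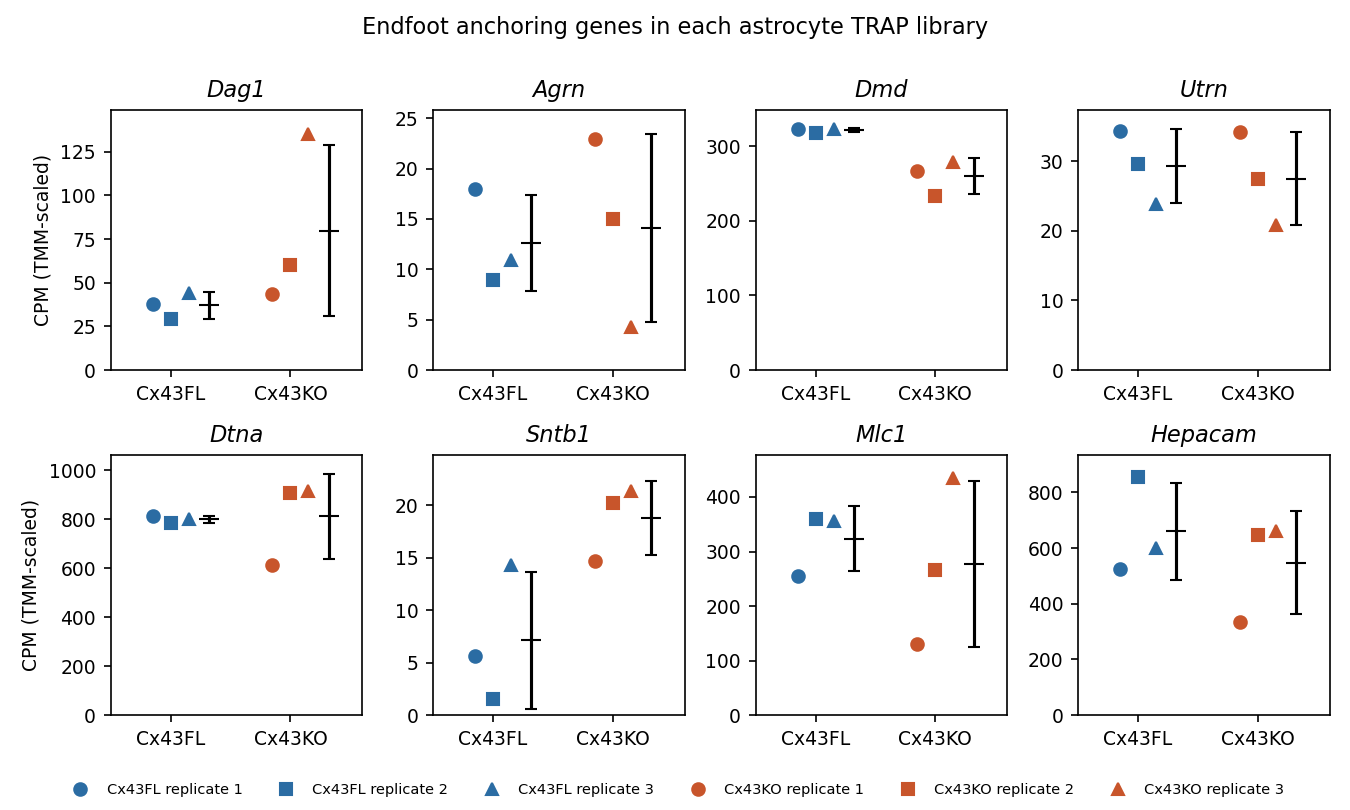
Level of each of the 8 genes in CPM (vertical axis, linear from 0) in every library, with Cx43FL in blue and Cx43KO in orange and a marker shape for each replicate number. Black bars give the mean and SD of 3 libraries. Dmd was lower in all 3 Cx43KO libraries and Sntb1 higher, while the genotypes overlapped for the other 6 genes.

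Per kb of transcript, the 8 genes spanned a wide range of levels in Cx43FL. Hepacam was the highest, with 157, 256 and 179 CPM per kb in replicates 1 to 3, above every Cx43FL value of the next gene. Dtna had 129, 125 and 127 CPM per kb and Mlc1 91.1, 128 and 127, and the order of these neighbours lay within their spread. Dmd followed at 21.6 ± 0.202 CPM per kb (SD, n = 3 libraries) and Dag1 at 8.38 ± 1.70, each apart from its neighbours. Utrn (2.37 ± 0.427 CPM per kb), Agrn (1.46 ± 0.552) and Sntb1 (1.45 ± 1.32) came last and overlapped with each other. These transcripts run from 2.801 kb for Mlc1 to 14.91 kb for Dmd. Reads leaned to the 3' end, as given below, which can lower the level per kb of a long transcript. The levels were not corrected for this, so that the order need not be that of mRNA molecules. For comparison, the partners anchored by the complex had 92.7 ± 12.1 CPM per kb for Aqp4 and 71.0 ± 2.58 for Kcnj10. In Cx43KO, Hepacam, Dtna and Mlc1 were again the highest by their means, of 163.5, 128.8 and 99.0 CPM per kb. When the counts of all transcripts of a gene were added and divided by its exons, only 3 of the 8 genes stayed at their rank and Mlc1 came first, at 231 CPM per kb, since a read that lies on several transcripts is then added more than once.

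**Figure D2:**
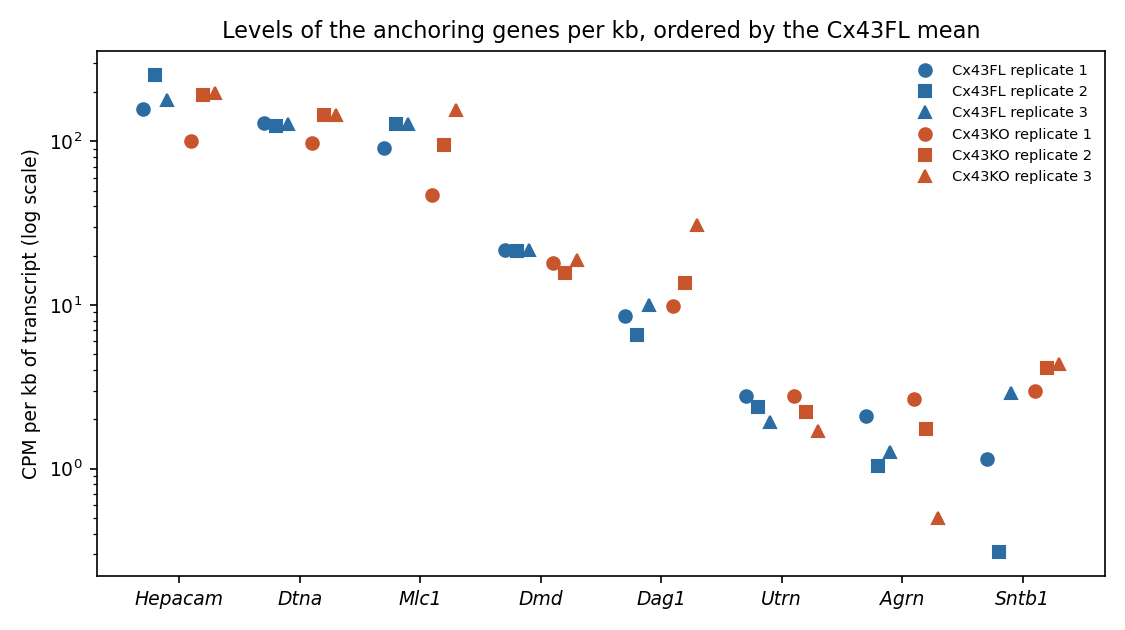
CPM per kb of the representing transcript (vertical axis, log scale) for the 8 genes, ordered by their Cx43FL mean from 197 for Hepacam to 1.45 for Sntb1, with each library as a point. Hepacam, Dtna and Mlc1 lie above the remaining genes in every library of both genotypes.

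Dag1 encodes dystroglycan, the receptor that links the endfoot to laminin and agrin. It lies on chromosome 9 of GRCm38 from 108204634 to 108263958 on the reverse strand, and its transcript of 4 exons has 4415 bases, of which 2679 are coding. Dag1 had 37.8, 29.1 and 44.0 CPM in Cx43FL and 43.8, 60.4 and 135 CPM in Cx43KO replicates 1 to 3. The highest value was that of Cx43KO replicate 3, and the lowest Cx43KO value lay just under the highest Cx43FL value. This is a log2 fold change of 1.11 ± 0.45 (SE; 95% interval 0.13 to 2.09), with an adjusted p of 0.559 in edgeR and 0.285 in DESeq2 without prior. Without Cx43KO replicate 3 it was 0.49, and with each of the other libraries left out it stayed between 0.95 and 1.40. For Dag1 the 2-sided exact permutation test of log2(CPM + 0.5) gave p = 0.2, where 3 against 3 libraries cannot go below 0.1. The 3 transcripts of Dag1 share nearly all their reads, with 4386 counts on each in Cx43KO replicate 3.

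Agrn encodes agrin, a heparan sulfate proteoglycan of the basal lamina that binds dystroglycan. It lies on chromosome 4 from 156165290 to 156197488 on the reverse strand. Agrn had 17.98, 8.96 and 10.9 CPM in Cx43FL and 22.9, 15.0 and 4.29 CPM in Cx43KO. The highest and the lowest of the 6 values were both in Cx43KO. The difference was 0.16 ± 0.68 on the log2 scale (SE; 95% interval -1.34 to 1.66; edgeR, adjusted p = 0.961), and -0.39 without Cx43KO replicate 1. As a fold, this interval runs from 0.395 to 3.15, and changes of Agrn within these bounds are compatible with the data. The interval is not a limit of detection, since a call needs an adjusted p under 0.05 over all genes.

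The position of the reads along Agrn was uneven. A transcript that holds the last exons (Agrn-205, 2071 bases) took most counts of the longest one (Agrn-207, 8612 bases). The counts outside Agrn-205 were taken as those of Agrn-207 less those of Agrn-205. They were 26, 0 and 17 of 273, 135 and 167 in Cx43FL and 144, 45 and 16 of 369, 374 and 139 in Cx43KO. These shares of 9.52%, 0% and 10.2% in Cx43FL lay below those of 39.0%, 12.03% and 11.5% in Cx43KO, although 77.0% of the bases lie outside. Reads on the 86 bases that only Agrn-205 has lower this difference. A difference of 0 thus does not show that no read lay outside. The log2 ratio of counts per kb outside to counts per kb inside was 2.67 higher in Cx43KO (p = 0.1 in an exact permutation test, its lower limit), and 1.03 higher without Cx43FL replicate 2, whose count outside was 0. Agrn-206, which starts at a promoter farther upstream and lacks the last 488 bases, had 55, 36 and 80 counts in Cx43FL and 283, 150 and 52 in Cx43KO, and the genotypes overlapped. Cx43KO replicate 1 was the highest for both readings.

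Dmd encodes dystrophin, which ties dystroglycan to the cytoskeleton. Its level was 323, 318 and 323 CPM in Cx43FL and 267, 233 and 279 CPM in Cx43KO. All 3 Cx43KO libraries were below all Cx43FL libraries, and the Cx43FL values lay close together (321.7 ± 3.02 CPM, SD, n = 3). On the log2 scale Dmd differed by -0.31 ± 0.25 (SE; 95% interval -0.86 to 0.25), which did not pass the test (edgeR, adjusted p = 0.722). The exact permutation test for Dmd reached its lower limit of p = 0.1. Leaving out any single library kept the difference between -0.36 and -0.24. Set against the mean log2 level of the 10 astrocyte markers in the same library, a scaling chosen after the data had been seen, the difference for Dmd was 0.045, so that its direction depends on the scale.

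Most counts of Dmd came from the end of the gene shared with the Dp71 type. In 99.0% of 102462 comparisons over all genes, a transcript that lies within a longer one had no more counts than the longer one. The counts of such transcripts can be read as nested. Dmd-201 has 47 bases that Dmd-203 lacks, so that this pair was not among these comparisons. Dmd-203 had 4910, 4797 and 4966 counts in Cx43FL, beside 4668, 4389 and 4614 on Dmd-201. In Cx43KO it had 4306, 5791 and 9045 counts, beside 4133, 5743 and 8702 on Dmd-201. Over the 6 libraries, the count of Dmd-201 was a mean of 95.1% of that of Dmd-203. The files do not tell the short form from the end of the full-length form, except by what lies outside their common part.

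Libraries made from amplified RNA can hold more reads near the 3' end, and this was measured over other genes. In 245 genes with a short transcript at the 3' end, the short transcript had a median of 30.6% of the bases and 53.5% to 63.4% of the counts, depending on the library. Reads thus leaned to the 3' end in other genes as well. A mean share at or above that of Dmd was found in 21 of these 245 genes, but the measures are not alike. The short transcripts of the 245 genes lie within the long one and end near its 3' end. Dmd-201 ends 1102 bases before the end of Dmd-203 and has 47 bases that Dmd-203 lacks. How much of the pattern of Dmd comes from the Dp71 start was not tested.

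The transcripts along Dmd had their highest levels per kb at the 3' end, but the levels did not rise steadily. In Cx43FL, Dmd-205 (exons 1 to 7) had 0.154 ± 0.0897 CPM per kb and Dmd-212 (exons 2 to 17) had 1.15 ± 0.585 (SD, n = 3 libraries). Further along came Dmd-210 (exons 30 to 34) at 2.85 ± 1.03 CPM per kb, Dmd-209 (exons 40 and 41) at 0.709 ± 1.23 and Dmd-208 (exons 45 and 46) at 1.89 ± 1.32. Dmd-211 (exons 54 to 70) stood at 10.9 ± 5.14 CPM per kb, above Dmd-214 (exons 56 to 62) at 1.59 ± 1.15 and Dmd-206, of which only exon 63 is shared, at 2.70 ± 0.735. Dmd-201 had 67.5 ± 1.85 CPM per kb and Dmd-204, which covers exons 75 to 79 alone, had 226 ± 58.2. Dmd-213, which begins at 85048322, in the region of the Dp71 start, and ends in exon 70, had 435, 202 and 547 counts in Cx43FL and 291, 480 and 1574 in Cx43KO. Dmd-211, which reaches upstream of that region, had 494, 188 and 558 counts in Cx43FL and 258, 424 and 1555 in Cx43KO. These transcripts share 1245 bases, and Dmd-211, with 1249 bases of its own, exceeded Dmd-213 by at most 59 counts in a library. In 4 of the 6 libraries Dmd-213 had the higher count of this pair.

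**Figure D3:**
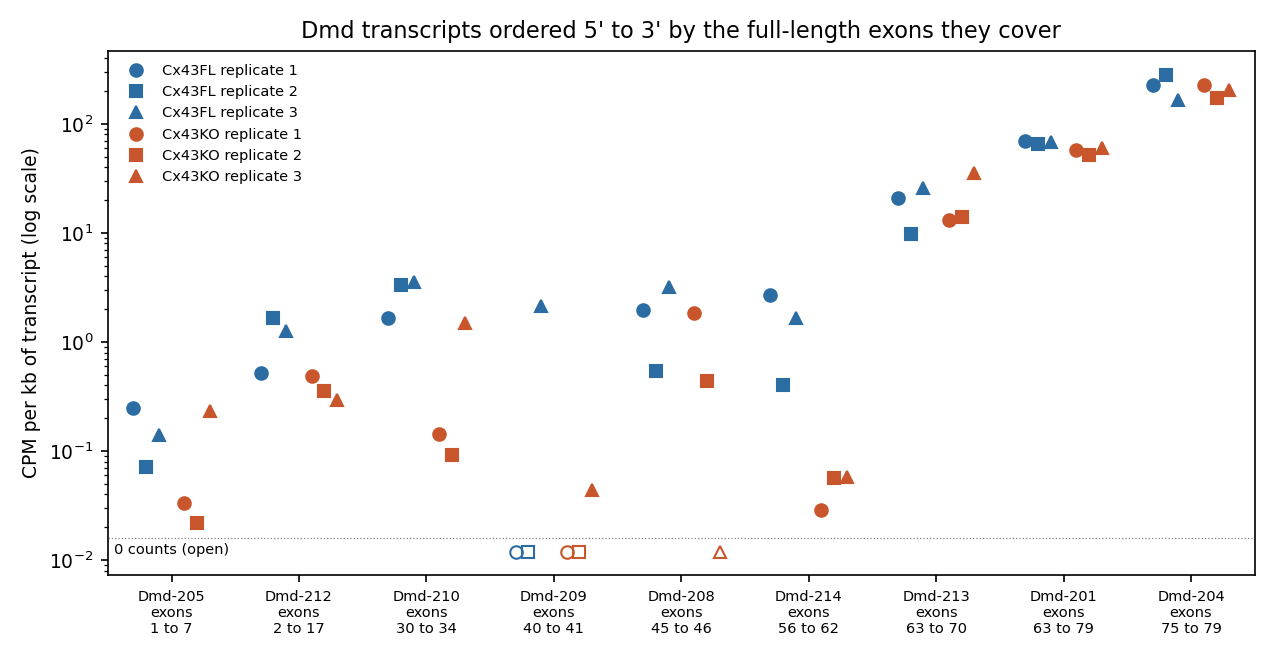
CPM per kb (vertical axis, log scale) on 9 transcripts of Dmd, ordered along the gene by the exons of the full-length form that they cover, with each library as a point and counts of 0 as open symbols under the dotted line. The lowest Cx43FL mean is 0.154 CPM per kb for exons 1 to 7 and the highest 226 for exons 75 to 79, with no steady rise between them, and Dmd-214 is lower in the 3 Cx43KO libraries.

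The counts of Dmd-203 outside Dmd-201, taken as the difference of their counts, were a smaller share in each Cx43KO library. This difference was 242, 408 and 352 in Cx43FL and 173, 48 and 343 in Cx43KO. It made up 4.93%, 8.51% and 7.09% of Dmd-203 in Cx43FL and 4.02%, 0.829% and 3.79% in Cx43KO. Reads on the 47 bases that only Dmd-201 has lower this difference, and their number was not measured. All 3 Cx43KO shares were below all Cx43FL shares. The log2 ratio of counts per kb outside to counts per kb inside was -5.05 ± 0.43 (SD, n = 3) in Cx43FL and -6.62 ± 1.31 in Cx43KO, a difference of -1.57 (p = 0.1 in an exact permutation test, its lower limit). Without Cx43KO replicate 2, which had the lowest share, the difference was -0.82. Of the 10519 bases outside, 1102 lie beyond the end of Dmd-201 and the rest upstream. This ratio is taken within a library and does not depend on the scaling between libraries. It was 1 of 5 such pairs of transcripts tested.

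Short upstream transcripts of Dmd had few counts. Dmd-212 had 24, 77 and 59 counts in Cx43FL and 24, 27 and 29 in Cx43KO. Dmd-210, which covers exons 30 to 34 and begins in the intron known for the start of the retinal dystrophin Dp260, had 22, 44 and 47 counts in Cx43FL and 2, 2 and 42 in Cx43KO. Dmd-208, which covers exons 45 and 46 and begins in the intron known for the start of Dp140, had 11, 3 and 18 counts in Cx43FL and 11, 4 and 0 in Cx43KO. For Dmd-210 and Dmd-212, all 3 Cx43KO libraries were below all Cx43FL libraries after scaling, while Dmd-208 overlapped.

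Dmd-214 had the log2 fold change farthest from 0 among the 30 transcripts of the 8 genes that were tested. It covers exons 56 to 62 with retained intron sequence and begins in the intron known for the start of Dp116, the dystrophin of Schwann cells. It had 88, 13 and 55 counts in Cx43FL and 1, 3 and 4 in Cx43KO, and the genotypes did not overlap. It stood at -4.94 ± 1.31 (SE; 95% interval -7.81 to -2.06), with an unadjusted p of 0.0029 and an adjusted p of 0.692 over 49127 transcripts in edgeR. DESeq2 without prior gave Dmd-214 an adjusted p of 0.0119. These counts are few beside the 4306 to 9045 on Dmd-203.

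Of the 33 transcripts of the 8 genes, 30 passed the filter and edgeR called 0, against 0.00204% of all transcripts. DESeq2 without prior called 1, Dmd-214, against 0.777% of all transcripts it tested. The Cx43KO libraries lay entirely above the Cx43FL libraries for 4 transcripts, the 3 of Dag1 and Sntb1-201, as for 7.03% of all transcripts. The 3 of Dag1 share nearly all their reads and are not independent of each other. Scaled over genes, Dag1 overlapped, at 43.8 CPM in Cx43KO replicate 1 and 44.0 CPM in Cx43FL replicate 3. Scaled over transcripts, the same counts gave 19.3 and 18.9 CPM, so that this separation depends on the scaling. The Cx43KO libraries lay entirely below for 5 transcripts, all of Dmd, as for 6.17% of all. These 5 are Dmd-201, Dmd-203, Dmd-210, Dmd-212 and Dmd-214, all of which share exons with Dmd-203, so that they are not independent of each other.

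Utrn encodes utrophin, the relative of dystrophin that can take its place under dystroglycan and that is also known from endothelial cells. The gene spans 12382188 to 12869365 on the reverse strand of chromosome 10, and its transcript has 74 exons and 12382 bases. Utrn had 34.4, 29.7 and 23.8 CPM in Cx43FL and 34.2, 27.4 and 20.9 CPM in Cx43KO, and the genotypes overlapped. The difference of Utrn was -0.092 ± 0.42 (SE; 95% interval -1.01 to 0.83; edgeR, adjusted p = 0.963). Per kb, Dmd-201 was 29.2 ± 5.34 times as high as Utrn in Cx43FL and 26.8 ± 8.01 times in Cx43KO (SD over 3 libraries). This sets the 3' part of Dmd, where reads gather and are shared with the full-length form, against the whole of Utrn. Over the whole transcripts, the Cx43FL means were 21.6 CPM per kb for Dmd-203 and 2.37 for Utrn.

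Dtna encodes alpha-dystrobrevin, which binds dystrophin and syntrophins. The gene lies on chromosome 18. Dtna had 814, 784 and 799 CPM in Cx43FL and 612, 907 and 914 CPM in Cx43KO. The Cx43KO values lay on both sides of the narrow Cx43FL range, with Cx43KO replicate 1 below it. Between genotypes Dtna differed by 0.022 ± 0.27 on the log2 scale (SE; 95% interval -0.58 to 0.62; edgeR, adjusted p = 0.991). The longer transcript Dtna-202 had more counts than Dtna-201, which has 267 bases of its own. This excess was 66.2% to 69.8% of Dtna-202 in Cx43FL and 64.3% to 77.7% in Cx43KO. The log2 ratio of counts per kb differed by 0.082 (exact permutation test, p = 1). A gene on the opposite strand, Gm47898, overlaps 90 bases of Dtna, and reads there cannot be assigned to a strand.

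Sntb1 encodes beta-1-syntrophin, an adapter that binds dystrophin and carries signalling proteins and channels. On chromosome 15 it spans 55636388 to 55906949 on the reverse strand. Sntb1 had 5.60, 1.53 and 14.3 CPM in Cx43FL, from 85, 23 and 219 counts, and 14.7, 20.2 and 21.3 CPM in Cx43KO, from 237, 503 and 691 counts. All Cx43KO values exceeded all Cx43FL values, the closest pair being Cx43KO replicate 1 and Cx43FL replicate 3. Sntb1 thus had a log2 fold change of 1.40 ± 0.76 (SE; 95% interval -0.28 to 3.07; edgeR, adjusted p = 0.613), and the exact permutation test reached its lower limit of p = 0.1. The fold change ranged from 0.91 without Cx43FL replicate 2 to 2.39 without Cx43FL replicate 3. The 5' transcript Sntb1-202, with 309 bases of its own, had fewer counts than Sntb1-201. This difference made up 88.2% to 100% of Sntb1-201 in Cx43FL and 90.3% to 98.4% in Cx43KO, with no separation of the genotypes.

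Markers of other cells were measured beside Dag1, Dmd and Sntb1, whose values separated or nearly separated the genotypes. Together, 10 mural markers made up 32.7 to 41.4 CPM in the Cx43FL libraries and 43.8 to 100.7 CPM in the Cx43KO libraries, with a median log2 fold change of 1.63 over the 8 that were tested. Of these, Abcc9 (0.395, 0.332 and 2.15 against 5.52, 9.85 and 6.58 CPM) and Anpep (1.12, 0 and 0.716 against 3.10, 5.67 and 8.95 CPM) were higher in every Cx43KO library, while the pericyte marker Kcnj8 had 0 counts in every library. The 11 neuron markers summed to between 1988 and 2696 CPM in Cx43FL and between 2658 and 6944 CPM in Cx43KO, and 3 of them, Camk2a, Rbfox3 and Gad2, were higher in every Cx43KO library. The 10 microglia markers summed to between 29.6 and 51.1 CPM in Cx43FL and between 80.1 and 132.1 CPM in Cx43KO. The 10 endothelial markers summed to between 11.7 and 24.0 CPM in Cx43FL and between 23.7 and 34.0 CPM in Cx43KO, and 5 fibroblast markers to 17.9 to 42.7 and 24.7 to 66.2. The summed oligodendrocyte markers, 8 genes, were 588 to 967 CPM in Cx43FL and 607 to 2604 in Cx43KO, and the 5 markers of oligodendrocyte precursors 28.5 to 53.5 and 28.0 to 72.3. Also higher in every Cx43KO library were the microglia markers Csf1r and Itgam, Slco1a4 of the endothelial list, Mag of oligodendrocytes and Cspg4 of their precursors. Glul and Gjb6 of the astrocyte list and Ly6c1 of the endothelial list were lower in all 3. Abcb1a of the endothelial list was lower as well, but from only 8, 1 and 11 counts in Cx43FL and 0, 1 and 0 in Cx43KO. Abcb1a was not among the genes tested. These markers were named after their values had been seen, and 8.08% of all genes tested were higher and 7.45% lower in this way. Of all these markers, none of which was called, Itgam had the highest log2 fold change (5.96 ± 1.33, SE; edgeR, adjusted p = 0.490) and Neu4 the lowest (-1.25 ± 1.14; edgeR, adjusted p = 0.747). The part of these markers in the values of the 8 genes was not tested, and more cells of a type cannot be told apart here from more ribosome-bound RNA per cell.

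Mlc1 encodes the membrane protein of the second endfoot complex. It spans 88955884 to 88979007 on the reverse strand of chromosome 15, with 12 exons and 2801 bases in its transcript. Mlc1 had 255, 360 and 356 CPM in Cx43FL and 131, 266 and 435 CPM in Cx43KO. The lowest and the highest of the 6 values were both in Cx43KO. Mlc1 differed by -0.22 ± 0.40 on the log2 scale (SE; 95% interval -1.09 to 0.65; edgeR, adjusted p = 0.883), and by 0.11 without Cx43KO replicate 1.

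Hepacam encodes GlialCAM, which brings MLC1 to cell junctions. Hepacam spans 37367351 to 37386575 on the forward strand of chromosome 9, with 7 exons and 3347 bases in its transcript. Hepacam had 525, 856 and 599 CPM in Cx43FL and 334, 647 and 660 CPM in Cx43KO. The lowest value was again that of Cx43KO replicate 1, and the other Cx43KO libraries lay within the Cx43FL range. The difference was -0.27 ± 0.34 on the log2 scale (SE; 95% interval -1.01 to 0.47; edgeR, adjusted p = 0.820), and -0.020 without Cx43KO replicate 1.

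**Figure D4:**
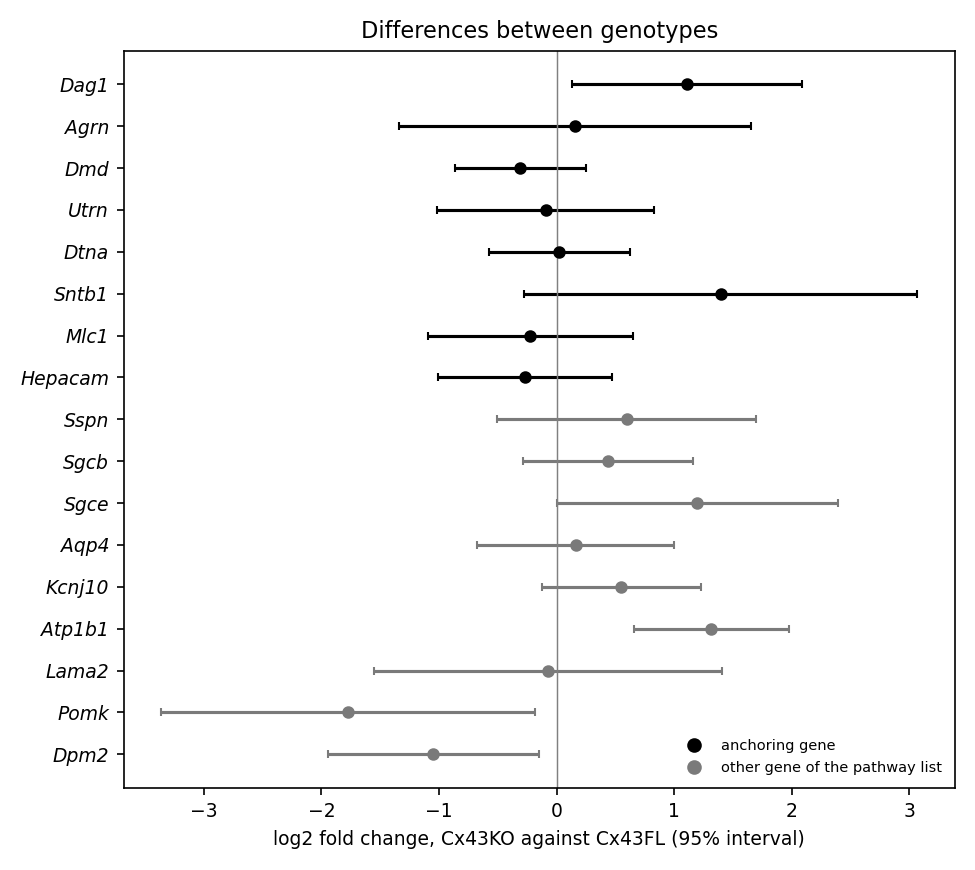
Log2 fold change of Cx43KO against Cx43FL (horizontal axis) with its 95% interval from edgeR, for the 8 anchoring genes in black and for other genes of the pathway list in grey. Dag1 at 1.11 has the only interval among the 8 that does not reach 0, before adjustment over all genes.

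Ratios between genes within a library, chosen after the values had been seen and given as a description, do not depend on the scaling. The count of Mlc1 was 0.486, 0.420 and 0.594 times that of Hepacam in Cx43FL and 0.392, 0.412 and 0.658 times in Cx43KO, with means of 0.50 and 0.487. The count of Dag1 was 0.117, 0.0915 and 0.136 times that of Dmd in Cx43FL and 0.164, 0.260 and 0.485 times in Cx43KO, higher in every Cx43KO library. Utrn to Dmd ranged from 0.0737 to 0.106 in Cx43FL and from 0.0747 to 0.128 in Cx43KO.

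**Figure D5:**
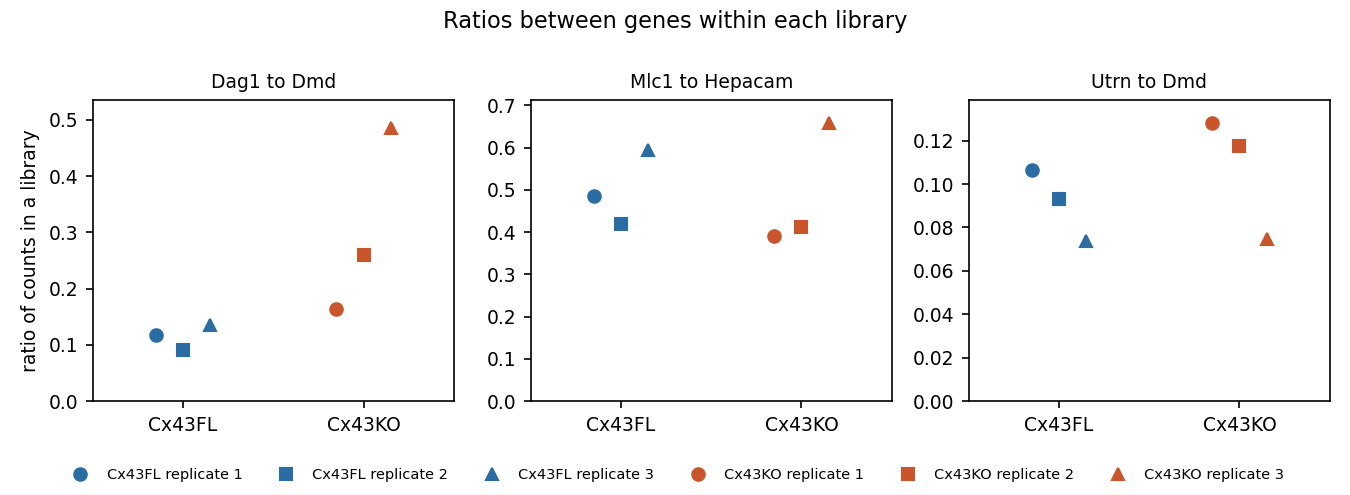
Ratio of the counts of 2 genes within each library (vertical axes, linear from 0) for 3 pairs of genes, by genotype, with each library as a point. Dag1 to Dmd is higher in the 3 Cx43KO libraries, up to 0.485, while Mlc1 to Hepacam and Utrn to Dmd overlap.

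The pattern over libraries was summarized by the mean of the standardized log2 levels of the 8 genes. It was 0.13, -0.070 and 0.086 in Cx43FL and -0.46, 0.11 and 0.20 in Cx43KO, with Cx43KO replicate 1 the lowest. The genes most like it over the 6 libraries were Taf5l (Pearson's r = 0.997), Ice2 (0.997), Kat5 (0.996), Notch4 (0.992) and Usp8 (0.992). All 5 were lowest in Cx43KO replicate 1, at 2.17 CPM for Taf5l and 61.2 CPM for Usp8 for example. Among the 8 genes, Mlc1 and Hepacam had r = 0.88, Mlc1 and Dtna 0.80, and Agrn and Utrn 0.86, while Mlc1 and Agrn had -0.86.

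The other genes of the same complexes were taken from a list of 53, of which 46 passed the filter on low counts. edgeR called 0 of these 46, and the Cx43KO libraries lay entirely above for 4 and entirely below for 4, against 8.08% and 7.45% of all genes tested. The median of their log2 fold changes was 0.40, beside 0.071 over all genes tested. Without Cx43KO replicate 1 this median was 0.24. In the list, 9 other subunits of the dystrophin complex were tested, with a median of 0.60, and 3 of them were higher in every Cx43KO library. Sgce, which encodes epsilon-sarcoglycan, had 8.17, 15.5 and 17.1 CPM in Cx43FL and 50.3, 18.7 and 24.6 CPM in Cx43KO (log2 fold change 1.20 ± 0.54, SE). Sgcb, which encodes beta-sarcoglycan, had 57.8, 66.3 and 56.1 CPM in Cx43FL and 109.9, 67.1 and 67.0 CPM in Cx43KO. Sspn, which encodes sarcospan, had 13.96, 10.2 and 16.3 CPM in Cx43FL and 25.5, 17.2 and 18.5 CPM in Cx43KO. For all 3, Cx43KO replicate 1 was the highest library, and without it their log2 fold changes were 0.67 for Sgce, 0.15 for Sgcb and 0.40 for Sspn.

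The anchored channels Aqp4 and Kcnj10 had log2 fold changes of 0.16 ± 0.38 and 0.55 ± 0.31 (SE) and overlapped between genotypes. Lama2, the laminin chain that astrocytes supply to the vessel wall, had 6.26, 8.42 and 9.64 CPM in Cx43FL and 6.58, 10.1 and 6.42 CPM in Cx43KO. Of 10 basal lamina genes tested, none separated the genotypes, against 15.5% of all genes tested.

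The fold changes of all 6 partners of the MLC1 complex were positive, as were those of 7366 of the 13545 genes tested. Their median was 0.63 on the log2 scale. Atp1b1, the beta subunit of the sodium pump that binds MLC1, had 215, 233 and 269 CPM in Cx43FL and 716, 404 and 665 CPM in Cx43KO, higher in every Cx43KO library. This is a log2 fold change of 1.32 ± 0.30 (SE; 95% interval 0.66 to 1.97), with an adjusted p of 0.490 in edgeR and of 0.0210 in DESeq2 with its prior, and it was 1.16 without Cx43KO replicate 1. It was the 1 gene of the list that DESeq2 called, against 0.948% of all genes it tested with its prior and 1.2% without. Atp1b1 is also abundant in neurons, whose 11 summed markers were 1988, 2423 and 2696 CPM in Cx43FL and 6944, 2658 and 4075 CPM in Cx43KO, and their part in the values of Atp1b1 was not tested.

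The enzymes that glycosylate dystroglycan, which needs this sugar chain to bind laminin, all passed the filter. Of these 16, the log2 fold change was positive in 6, against 7366 of the 13545 genes tested, and the median was -0.12. Of the 16, 3, Pomk and Dpm2 among them, were lower in every Cx43KO library, as were 7.45% of all genes tested. Pomk, a kinase that acts on the core sugar of the chain, had 23.5, 65.1 and 17.1 CPM in Cx43FL and 2.61, 13.8 and 14.5 CPM in Cx43KO (log2 fold change -1.77 ± 0.72, SE). Dpm2, a subunit of the enzyme that makes the mannose donor, had 69.3, 99.5 and 49.3 CPM in Cx43FL and 21.5, 40.9 and 43.1 CPM in Cx43KO (log2 fold change -1.05 ± 0.41, SE). Their adjusted p-values by edgeR were 0.563 and 0.556. Without Cx43KO replicate 1, the lowest library for both, the log2 fold changes were -1.33 for Pomk and -0.80 for Dpm2.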

How the data were processed

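Ribosome-bound RNA of hippocampal astrocytes was sequenced in 3 libraries per genotype. The deposited values are raw counts per Ensembl transcript. The authors had amplified the RNA with an Ovation kit, filtered reads in Eoulsan, aligned them to mm10 with STAR, dropped multiply aligned reads and counted with HTSeq-count (HTSeq 0.5.3 and bcl2fastq 1.8.4 in the submitters' processing notes). Of 75466 transcripts, 73157 were found in GENCODE M21 of the same build, and 2309 were not, with 1.60% to 1.78% of the counts. Transcript models may differ from the release used for counting. The transcript of highest total count stood for a gene.

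The genotype comparison used edgeR 4.0.16 under R 4.3.3 (TMM, filterByExpr, quasi-likelihood F test on genotype alone, Benjamini-Hochberg adjustment over all 13545 genes or 49127 transcripts). Standard errors were derived from the fold change and its F statistic. Parts of a gene were compared by exact 2-sided permutation tests on counts per kb, with 0.5 counts added to each part. The part outside a short transcript was the count of the long transcript less that of the short one. Reads on bases that only the short transcript has lower this difference. Alternatives were DESeq2 1.42.0, other size factors and filters, summed transcripts, a replicate block and leaving out each library, and scripts were tested on simulated data. Per 1000000 counts on genes, 3 counts correspond to 0.0864 to 0.203, which covers counting error only. The 8 genes and the lists of related genes and markers were chosen with earlier results of these data known. Named were the 8 genes, listed genes called or not overlapping between genotypes, Aqp4, Kcnj10, Lama2, Gja1, the 5 genes of most similar pattern, and the markers with the lowest and highest change. Some results covered by this rule are not reported here. Computations also used numpy 2.4.6, pandas 2.3.3, scipy 1.17.1 and matplotlib 3.10.9.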

Additional observations from a re-analysis of the deposited data

How the results depend on the processing

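None of the 8 genes was called under any of the 14 alternatives with a test. Over all genes, 1 was called upregulated and 0 downregulated by edgeR, against 145 and 27 by DESeq2 without prior, 113 and 17 with it, and 763 and 358 at an unadjusted p below 0.05. The upregulated count was 0 with at least 10 counts in every library or with summed transcripts, and 0 to 11 with 1 library left out, the 11 being without Cx43KO replicate 1. DESeq2 called 1 listed gene (Atp1b1) with or without prior and, without prior, 1 transcript of the 8 genes (Dmd-214). The median log2 fold change of the list, 0.40, was 0.32 with at least 10 counts in every library, 0.22 by DESeq2 with its prior, and 0.24 to 0.50 with 1 library left out. The order of levels per kb kept 3 of 8 ranks with summed transcripts and 4 to 8 with 1 Cx43FL library left out.

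Small differences changed sign. With 1 library left out, Agrn (0.16) ranged from -0.39 to 0.59, Utrn (-0.092) from -0.28 to 0.071, Dtna (0.022) from -0.073 to 0.18 and Mlc1 (-0.22) from -0.70 to 0.11. Dtna was -0.026 with upper-quartile factors. Relative to the astrocyte markers, a scaling added after seeing the data, Dmd was 0.045, Utrn 0.25 and Hepacam 0.052. The causes were not tested. The signs of Dag1 and Sntb1 held under all 15 alternatives.

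The labels give both genotypes replicate numbers 1 to 3, but deviations of same-numbered libraries correlated by 0.012, -0.0040 and -0.055, so that the libraries share only a number. With the replicate block edgeR called 2 genes upregulated and 0 of the 8, with Agrn at -0.062 and Dtna at -0.0012.

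A library held 0 to 88 counts on each of the upstream transcripts Dmd-205, Dmd-208, Dmd-209, Dmd-210, Dmd-212 and Dmd-214, 23 to 691 on Sntb1 and 135 to 374 on Agrn. Counting error is relatively largest at the lowest of these counts, and whether depth set the spread of Agrn or Sntb1 was not tested.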
